A study of Mus musculus with 4 samples.

Results

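Endothelial and blood-brain barrier genes were followed in the developing mouse pontine nucleus. The set was a list of 32 genes, chosen by name, and each gene was read from the probe set that carries its symbol alone. Of the 32 members, 31 were measured, out of 19938 genes measured in this way. The exception was Ly6c1, whose probe sets also carry the symbol of another gene, so it has no value here. Each measured member had 1 probe set.

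The tissue was the pontine nucleus of ICR mice, without genetic change or treatment, at embryonic day 17.5 (E17.5) and at postnatal days 1, 5 and 14 (P1, P5 and P14). RNA came from pools of 27, 16, 13 and 12 mice in that order, and each pool was hybridised to 1 Affymetrix array. With 1 array per age, the number of arrays limits the precision and no test between ages could be run. Every value is therefore a difference between single pools, and the words higher and lower below describe those 4 arrays only.

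Blood vessels of the brain are lined by endothelial cells that are sealed by tight junctions and carry out selective transport. Together with pericytes and the endfeet of astrocytes they form the blood-brain barrier, which keeps most blood solutes out and lets glucose, amino acids and lactate through on dedicated carriers. Vessels enter the embryonic hindbrain from a surrounding plexus under the control of VEGF, and Wnt signals from neural cells switch on the barrier programme. After birth the capillary bed continues to grow as the tissue does. In pooled bulk tissue, fewer cells of a type and less RNA per cell cannot be told apart.

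Levels are the deposited log2 signals, on which 1 unit is a 2-fold difference. The level of a probe set depends on its probes, so a member is compared between arrays and never with another member. A level of 8.41, the median of all probe sets with 1 symbol over the 4 arrays, was used as a filter on the highest array of each gene. Of the 31 measured members, 28 passed it and Slco1a4, Sox17 and Erg did not. Pecam1, Abcb1a and Foxq1 reached the filter on the P5-labelled array alone, and Tek, Vwf and Ets1 reached it on the P5- and P14-labelled arrays alone. Member counts are therefore given over all 31 measured members, except those at 2-fold, which are over the 28 past the filter. Between probe sets of the same gene, over 645 genes with at least 2 of them, the standard deviation of a difference was 0.12 for P1 against E17.5, 0.18 for P5 against P1, 0.10 for P14 against P1 and 0.14 for P14 against P5. This spread holds probe noise and leaves out the spread between pools.

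The P5- and P14-labelled arrays went against the order of their labels. Myelin genes were highest on the P5-labelled array, where Mog, a myelin surface protein, stood at 12.91 against 8.27 on the P14-labelled array and 7.39 at P1. Labels are kept as deposited, and each direction between these 2 arrays rests on them. The comparison of P1 with E17.5 uses neither of them. Slc17a6, a vesicular glutamate transporter made by pontine neurons, stood at 11.44, 11.17, 11.57 and 11.49 in order of labelled age. Slc17a7, another neuron marker, stood at 8.16, 9.38, 12.90 and 11.36. Such markers cannot check which nucleus was taken, and the tissue label is kept as deposited.

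Most endothelial genes were a little higher on both P5- and P14-labelled arrays than on both earlier arrays. This held for 26 of the 31 measured members, where 23.6% of all genes did the same. Most markers of several other cell types did so too, as given below. No member was lower on both, where 24.4% of all genes were. The count does not depend on which of the 2 arrays is the older, and it was chosen after the values had been seen. The 5 exceptions were Flt1, Slc2a1, Sox18, Slc7a5 and Slc7a1. With a gap of at least 0.1 between the higher and the lower pair of arrays, 23 of the 31 members remained.

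**Figure D1:**
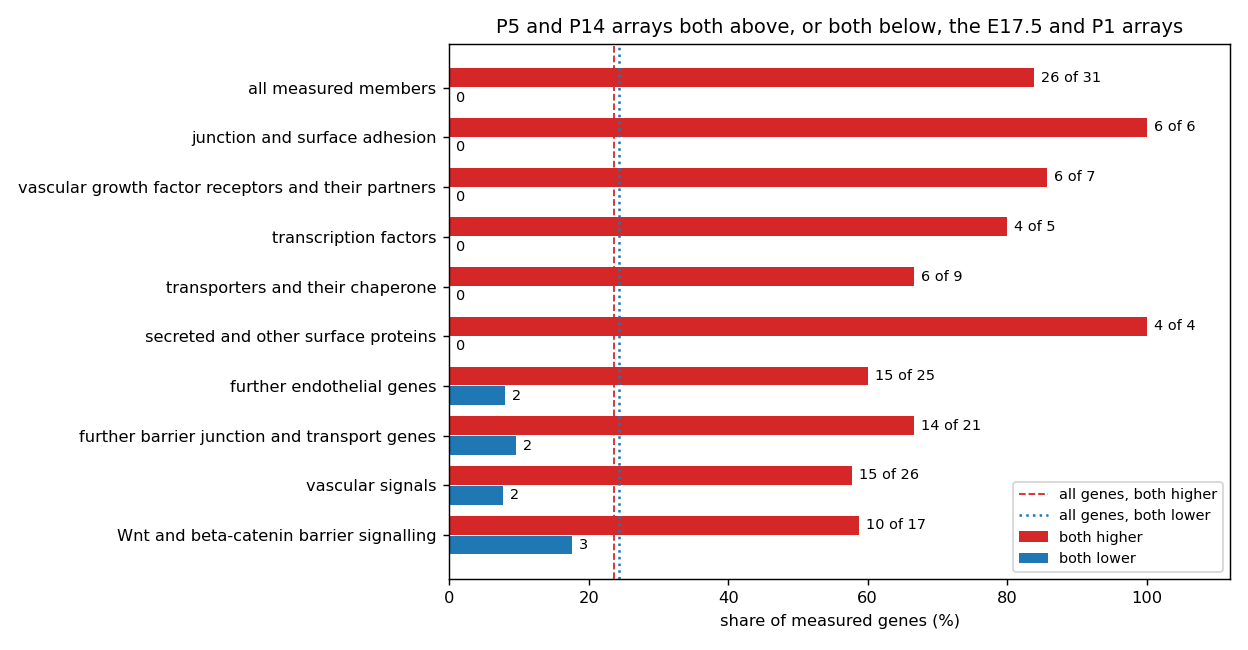
Share of measured genes, in percent, that were higher (red) or lower (blue) on both the P5- and P14-labelled arrays than on both the E17.5 and P1 arrays, for the 31 measured members, the 5 groups of members by role and 4 lists of related genes. The dashed and dotted vertical lines are the shares over all 19938 genes, 23.6% and 24.4%, and the bar of all measured members stands at 26 of 31 above and 0 below.

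Members differed little around birth and more between P1 and the 2 later labels. For P1 against E17.5 the median difference of the 31 measured members was 0.01, beside −0.03 over all genes, with 16 members above 0 and 14 below. For the P5-labelled array against P1 it was 0.36, beside −0.03, with 29 above 0. For the P14-labelled array against P1 it was 0.30, beside 0.02, with 30 above 0. Slc7a5 was lower than at P1 on both later arrays. The 3 differences share the P1 array, so they are given side by side and are not independent of each other.

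Few members reached a 2-fold difference. For P1 against E17.5 this was 1 of the 28 members past the filter, Slc16a1, where 0.826% of all genes that passed were higher by that size. For the P5-labelled array against P1 it was 3 of 28, Slc16a1, Ptprb and Mfsd2a, where 8.96% were, so that the share of members at this size was near the background. For the P14-labelled array against P1 it was Slc16a1 again, where 1.37% were. None of the 28 was at least 2-fold lower in these comparisons, where 0.275%, 3.94% and 0.101% of genes were, in the same order. Between the P5- and P14-labelled arrays, 0 of 28 members were at least 2-fold higher or lower on the latter, where 2.16% and 4.50% of genes were. Slco1a4, Sox17 and Erg, which did not pass the filter, are not in these counts.

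Smaller differences were counted past 2 standard deviations of the probe set spread. At P1 against E17.5, where that limit was 0.235, 6 of the 31 members were higher (12.0% of all genes) and 3 lower (16.5%). For the P5-labelled array against P1, with a limit of 0.352, 18 were higher (21.4%) and 1 lower (18.5%). For the P14-labelled array against P1, with a limit of 0.208, 24 were higher (20.2%) and 0 lower (14.0%). The members thus lay above the background in shares of small differences on both later arrays, while 2-fold differences were few.

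**Figure D2:**
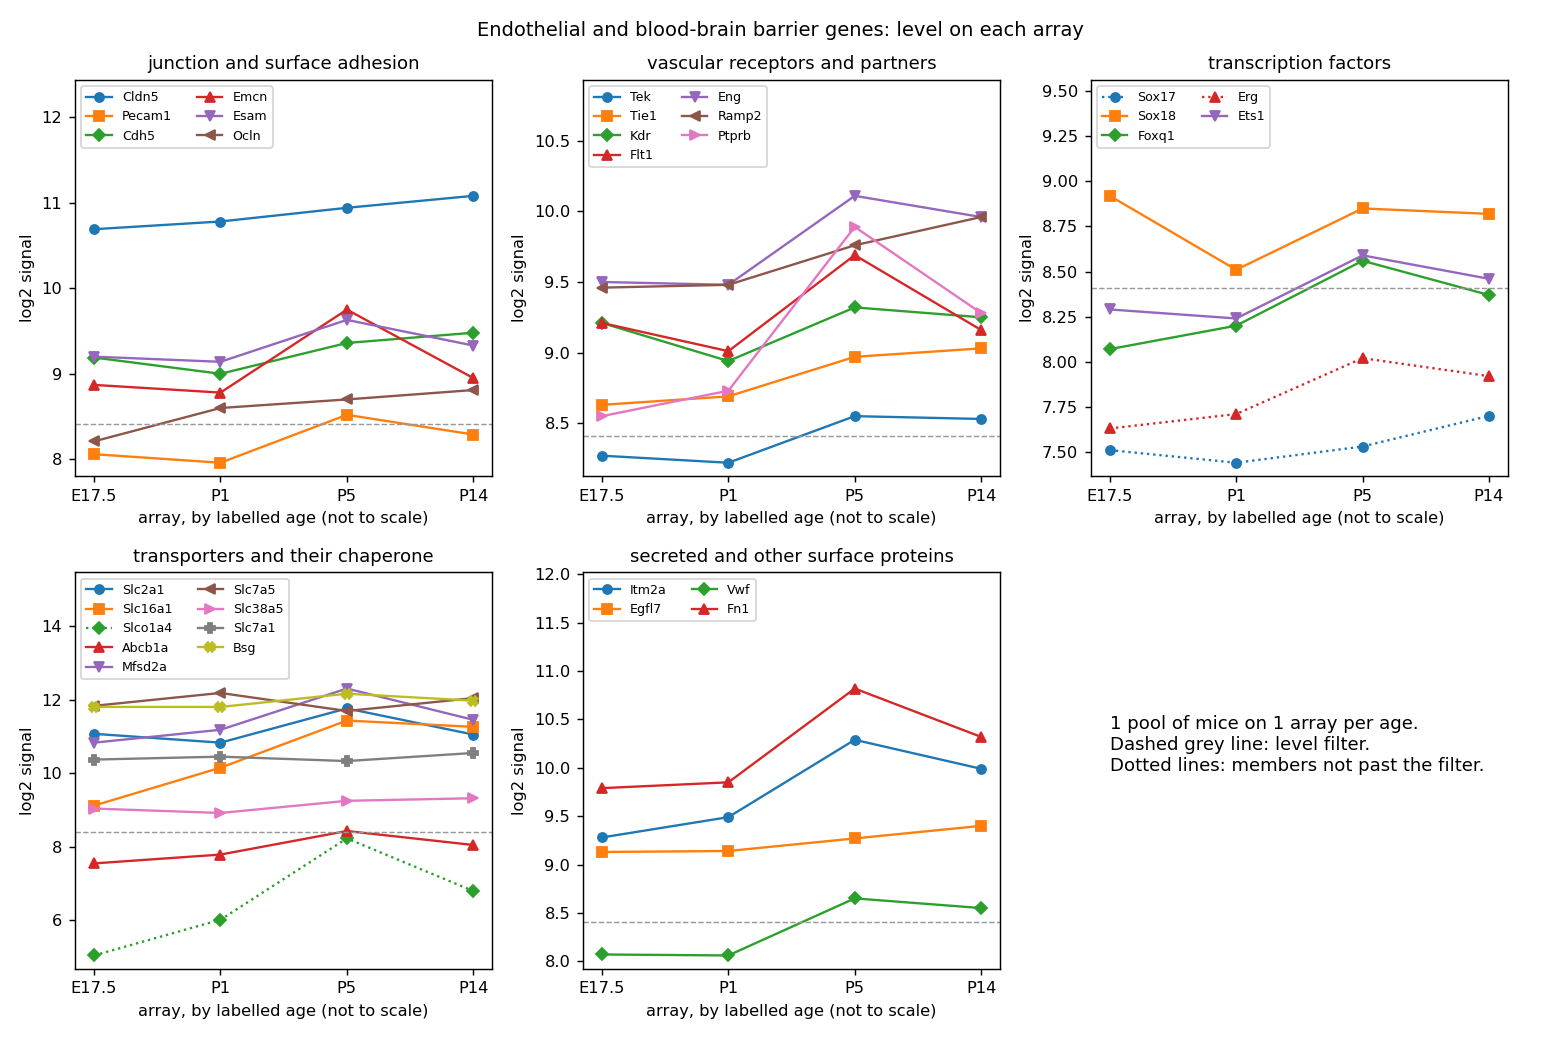
Log2 signal (vertical axis) of the 31 measured members on the 4 arrays in order of labelled age (horizontal axis, not to scale), in 5 panels by role, with 1 pool of mice per point and no error bar. Most lines run nearly level from E17.5 to P1 and stand higher at P5 and P14, while Slc16a1 climbs from 9.12 to 10.15, 11.43 and 11.26; the dashed line is the level filter and dotted lines are the 3 members under it.

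Junction and adhesion genes were all higher on both later arrays, 6 of 6. Cldn5, the claudin that seals brain endothelial tight junctions, measured 10.69 at E17.5, 10.78 at P1, 10.94 on the P5-labelled array and 11.08 on the P14-labelled array. Ocln, occludin of the tight junction, stood at 8.21, 8.60, 8.70 and 8.81 in the same order. Both were lowest at E17.5 and highest on the P14-labelled array, and of the pair Ocln had the larger share of its span around birth, with 0.39 between E17.5 and P1. Cdh5, VE-cadherin of the adherens junction, stood at 9.19, 9.0, 9.36 and 9.48. Pecam1, an adhesion molecule between endothelial cells, stood at 8.06, 7.96, 8.52 and 8.29, so that 3 of its 4 levels lay under the filter and the size of its difference is inexact. Esam, another adhesion molecule of endothelial junctions, stood at 9.20, 9.14, 9.63 and 9.33. These 3 genes were lowest at P1, by no more than 0.19 under E17.5. Emcn, a sialomucin on the surface of capillary and venous endothelium, stood apart in the group, at 8.87, 8.78, 9.75 and 8.95. Its level on the P5-labelled array was 0.97 above P1, just inside 2-fold, whereas the P14-labelled array was 0.17 above P1.

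Among vascular receptors and their partners, 6 of 7 were higher on both later arrays. Kdr, the main signalling receptor for VEGF, stood at 9.21, 8.94, 9.32 and 9.25. Flt1, the VEGF receptor that also acts as a decoy, stood at 9.21, 9.01, 9.69 and 9.16. Both were lowest at P1, with differences of −0.27 and −0.20 from E17.5, and on the P14-labelled array Flt1 was still 0.05 short of its E17.5 level. Tek, the angiopoietin receptor Tie2, stood at 8.27, 8.22, 8.55 and 8.53. Tie1, its partner receptor, stood at 8.63, 8.69, 8.97 and 9.03. These 2 receptors had spans of 0.33 and 0.40 over the 4 arrays, among the smaller spans in the group. Ptprb, the phosphatase VE-PTP that restrains Tie2, had the largest span of the 7 genes, at 8.55, 8.73, 9.89 and 9.28, or 2.23-fold between P1 and the P5-labelled array (log2 difference 1.16). The phosphatase was thus more than 2-fold higher on the P5-labelled array than at P1 while its receptor differed by 0.33. Eng, endoglin, a co-receptor for BMP and TGF-beta ligands, stood at 9.5, 9.48, 10.11 and 9.96. Ramp2, the partner of the adrenomedullin receptor, stood at 9.46, 9.48, 9.76 and 9.96. For both genes the E17.5 and P1 levels were within 0.02 of each other and both later arrays lay above them.

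Transcription factors of endothelium differed little. Sox17 and Sox18 are SOX factors of vascular development, Erg and Ets1 are ETS factors of which Erg maintains endothelial identity, and Foxq1 is a forkhead factor enriched in brain endothelium. Sox18 measured 8.92 at E17.5, 8.51 at P1, 8.85 on the P5-labelled array and 8.82 on the P14-labelled array. It was the only measured member with its highest level at E17.5, and its −0.41 at P1 was the largest negative difference of any member in that comparison. Sox17 stood at 7.51, 7.44, 7.53 and 7.70, Erg at 7.63, 7.71, 8.02 and 7.92, all under the filter. Ets1 stood at 8.29, 8.24, 8.59 and 8.46, and Foxq1 at 8.07, 8.20, 8.56 and 8.37. No factor of the 5 spanned more than 0.49 over the 4 arrays, and Erg, Ets1 and Foxq1 were highest on the P5-labelled array.

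ETS and SOX factors bind short letters in DNA, so the promoters of the members were read for them. RefSeq windows of 300 bases, from 250 before to 50 after the start, were found for 19 member genes in GRCm38.p6. The ETS letters CAGGAAG, searched on both strands, were present in 4 of the 19 genes (Egfl7, Emcn, Erg and Itm2a), beside 14.8% of all 27025 genes with windows. The SOX letters AACAAT were in 5 of 19 (Emcn, Erg, Slc7a1, Slco1a4 and Tek), beside 12.2%, and the FOX letters GTAAACA in 1 of 19 (Abcb1a), beside 4.05%. Genes with several starts had several windows, and a match in any of them was counted. A match is a description of these letters and not evidence of binding. The 3 windows shown are 1 for each member past the level filter with the ETS letters; another window of Egfl7, at chr2:26583615-26583914, also held them once and is not shown. They lie at chr3:137340828-137341127 on the plus strand (Emcn), chrX:107403311-107403610 on the minus strand (Itm2a) and chr2:26580833-26581132 on the plus strand (Egfl7, the first of its windows). Capitals mark the ETS letters, or their reverse complement, and each window is written 5′ to 3′ as the RefSeq table gives it.
Emcn: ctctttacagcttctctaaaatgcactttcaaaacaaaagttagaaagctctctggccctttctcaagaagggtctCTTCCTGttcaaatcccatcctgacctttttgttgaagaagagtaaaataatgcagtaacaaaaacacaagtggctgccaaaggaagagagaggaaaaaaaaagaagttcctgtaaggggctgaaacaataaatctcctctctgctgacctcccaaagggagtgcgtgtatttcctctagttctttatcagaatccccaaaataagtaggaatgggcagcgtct
Itm2a: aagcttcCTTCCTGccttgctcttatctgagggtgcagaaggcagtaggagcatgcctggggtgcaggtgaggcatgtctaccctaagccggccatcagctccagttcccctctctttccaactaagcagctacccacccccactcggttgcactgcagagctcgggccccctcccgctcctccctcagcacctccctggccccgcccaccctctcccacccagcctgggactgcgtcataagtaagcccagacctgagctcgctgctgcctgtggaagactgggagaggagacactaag
Egfl7: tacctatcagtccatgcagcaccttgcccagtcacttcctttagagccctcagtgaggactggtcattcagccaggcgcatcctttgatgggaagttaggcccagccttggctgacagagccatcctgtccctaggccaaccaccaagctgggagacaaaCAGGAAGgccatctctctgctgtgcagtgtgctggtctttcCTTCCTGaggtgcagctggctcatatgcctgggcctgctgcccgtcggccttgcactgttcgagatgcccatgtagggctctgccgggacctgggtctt
The match began 174 bases before the start in Emcn and 243 before it in Itm2a, and this Egfl7 window held 2 matches, at 90 and 49 bases before it. All 4 genes with these letters, Erg included, were higher on both later arrays, near the share of all measured members, 26 of 31. Slc7a1, with the SOX letters, was not among those 26. A link between the letters and the levels was not tested. Between P1 and the P5-labelled array, Emcn differed by 0.97, Itm2a by 0.80, Erg by 0.31 and Egfl7 by 0.13.

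Transporters held the largest differences of the set and also the 2 members that were lowest on the P5-labelled array. Slc16a1, the monocarboxylate transporter MCT1 that carries lactate and ketone bodies, measured 9.12 at E17.5, 10.15 at P1, 11.43 on the P5-labelled array and 11.26 on the P14-labelled array. It was 2.04-fold higher at P1 than at E17.5, and a further 2.43-fold and 2.16-fold higher than P1 on the P5- and P14-labelled arrays. Each step between E17.5, P1 and the later pair was thus at least 2-fold, and the later pair were within 0.17 of each other. MCT1 is also made by oligodendrocytes and astrocytes, whose markers are given below. Mfsd2a, the carrier of lysophospholipids rich in omega-3 fatty acids that also limits transcytosis in brain endothelium, stood at 10.83, 11.18, 12.30 and 11.45. It was 2.17-fold higher on the P5-labelled array than at P1, and 0.27 higher on the P14-labelled array. Slc2a1, the glucose transporter GLUT1, stood at 11.07, 10.83, 11.76 and 11.05. For GLUT1 the P5-labelled array was alone in lying above E17.5, and the P14-labelled array was 0.02 below it.

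The efflux and organic anion carriers had low signals. Slco1a4, which carries organic anions and thyroid hormone conjugates at the barrier, stood at 5.05, 6.02, 8.23 and 6.80, under the filter on every array and under the lower quartile of the array (6.51 and 6.53) at E17.5 and P1, so no fold is given. Its order over the arrays was that of Mfsd2a, with E17.5 lowest and the P5-labelled array highest. Abcb1a, the drug efflux pump P-glycoprotein, stood at 7.55, 7.79, 8.43 and 8.05, with 3 of 4 levels under the filter. Amino acid carriers differed among themselves. Slc7a5, the large neutral amino acid transporter LAT1, stood at 11.83, 12.18, 11.69 and 12.04. It was the only measured member highest at P1, and it differed by −0.49 on the P5-labelled array, the largest negative difference of any member in that comparison. Slc7a1, the cationic amino acid transporter CAT1, stood at 10.37, 10.45, 10.33 and 10.55, and its span of 0.22 was the smallest of all members. Slc38a5, a transporter of glutamine and related amino acids, stood at 9.04, 8.92, 9.25 and 9.32. Bsg, basigin, the chaperone that brings MCT1 to the cell surface, stood at 11.80, 11.80, 12.16 and 11.97. Basigin thus spanned 0.36 over the 4 arrays where its partner Slc16a1 spanned 2.31. Bsg, Slc7a5 and Slc7a1 are made by many cell types.

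Secreted and other surface proteins were all higher on both later arrays, 4 of 4 measured. Fn1, fibronectin of the vascular matrix, stood at 9.79, 9.85, 10.82 and 10.32. Itm2a, a membrane protein abundant in brain endothelium, stood at 9.28, 9.49, 10.29 and 9.99. Both were highest on the P5-labelled array, at 0.97 and 0.80 above P1. Vwf, the von Willebrand factor of platelet adhesion, stood at 8.07, 8.06, 8.65 and 8.55, and Egfl7, a secreted factor of vessel tube formation, at 9.13, 9.14, 9.27 and 9.40. Egfl7 had a span of 0.27, and its E17.5 and P1 levels were 0.01 apart.

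**Figure D3:**
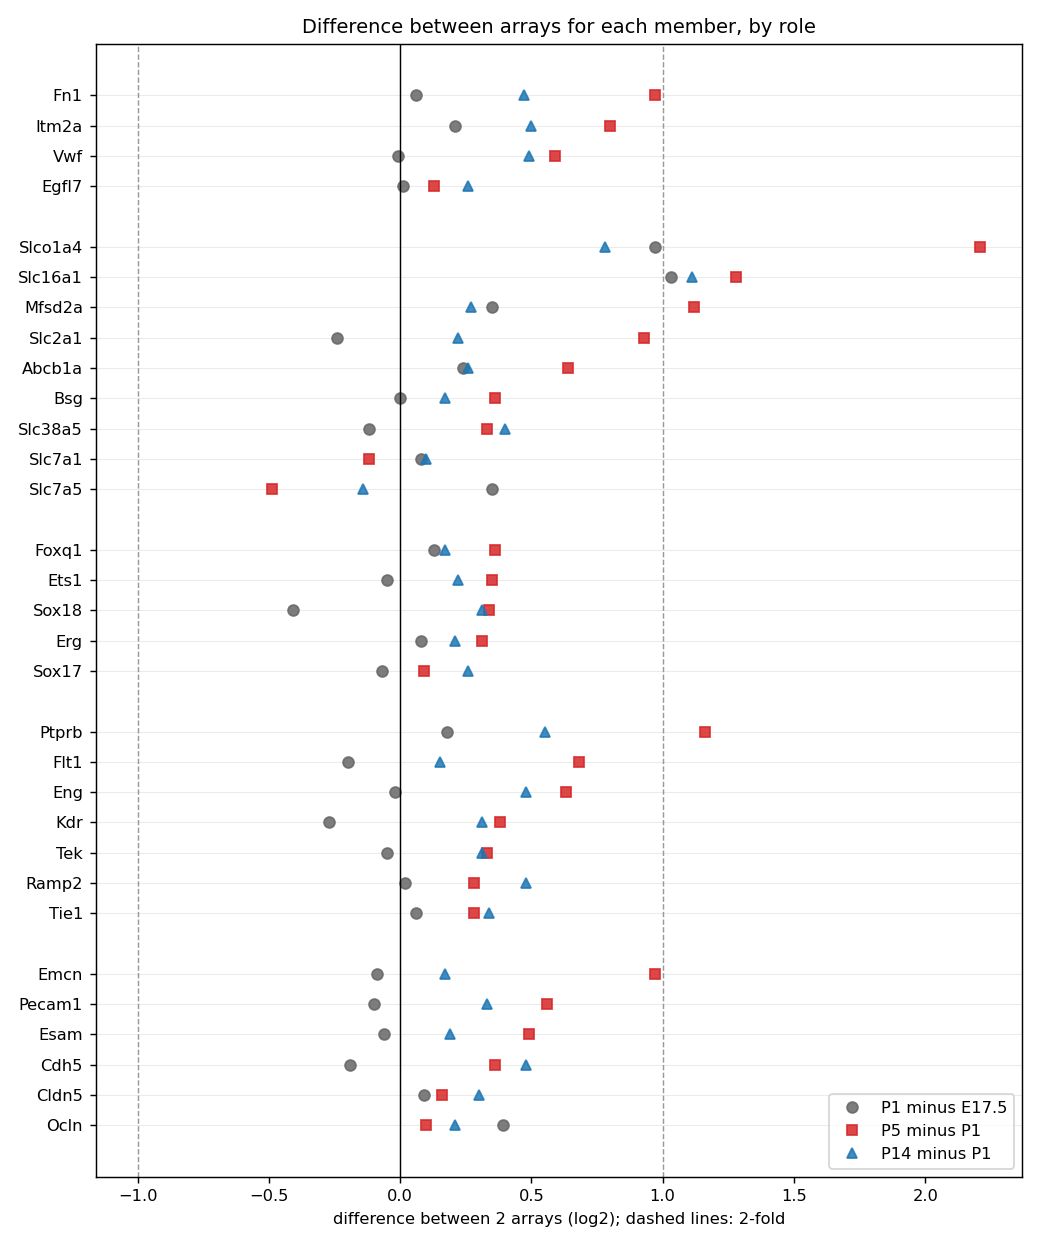
Difference between 2 arrays on the log2 scale (horizontal axis) for each of the 31 measured members (rows, grouped by role), as P1 minus E17.5 (grey circles), P5-labelled array minus P1 (red squares) and P14-labelled array minus P1 (blue triangles). Squares and triangles lie to the right of 0 for all members but Slc7a5 (both) and Slc7a1 (square), and squares past the dashed 2-fold line are Slco1a4, Slc16a1, Ptprb and Mfsd2a.

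The members differed in how the P5- and P14-labelled arrays were ordered. In 20 of the 31 the P5-labelled array was highest and in 9 the P14-labelled array. The P14-labelled array lay between P1 and the P5-labelled array in 22 members (71.0%). Of all genes 50.9% did so, and of genes past the filter 60.5%. The P5-labelled array lay between P1 and the P14-labelled array in 8 members (25.8%), where 14.8% of all genes and 12.9% of genes past the filter did. These 8 were Cldn5, Ocln, Cdh5, Tie1, Ramp2, Sox17, Slc38a5 and Egfl7, and their differences between the 2 arrays did not exceed 0.20. For the P14-labelled array against P5 the limit of 2 standard deviations was 0.281. Past it, 10 of the 31 members were lower on the P14-labelled array (20.2% of all genes) and 1, Slc7a5, was higher (22.4%). The lowest differences were those of Slco1a4, already given as levels, Mfsd2a (−0.85), Emcn (−0.80), Slc2a1 (−0.71), Ptprb (−0.61) and Flt1 (−0.53). The median difference of the 31 members was −0.13, beside 0.04 over all genes. Over the 28 members past the filter it was −0.14, beside −0.07 over all genes past it.

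Signals that act on vessels were read from a list of 26 further genes, of which 16 passed the filter. Between E17.5 and P1, 1 of the 16 was at least 2-fold higher, where 0.826% of all genes were: Calcrl, the receptor that pairs with Ramp2, at 1.12. Calcrl stood at 7.72 at E17.5, under the filter, so the size of its difference is inexact. S1pr1, the receptor for sphingosine 1-phosphate, followed at 0.94, and Nrp1, a co-receptor for VEGF and semaphorins, had the largest negative difference, −0.68. Vegfa, the ligand of Kdr and Flt1, stood at 10.40, 10.06, 10.54 and 10.07, lower at P1 and on the P14-labelled array and higher at E17.5 and on the P5-labelled array. Between P1 and the P5-labelled array, 0 of the 16 were at least 2-fold higher and 1 was lower, where 8.96% and 3.94% of all genes were, so that the lower count was near the background. The lower gene was Plxnd1, the semaphorin receptor of vessels and neurons, at −1.20, followed by Nrp1 at −0.91. S1pr1 (0.91) and Tgfbr2 (0.79), a TGF-beta receptor, were highest among the differences. For the P14-labelled array against P1 none of the 16 was 2-fold apart, with Nrp1 at −0.73 and Aplnr, the apelin receptor, at 0.53 as the extremes. S1pr1, Nrp1 and Plxnd1 are also made by cells outside vessels.

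Wnt signalling that induces the barrier was read from 19 genes, of which 17 were measured and 12 passed the filter. None was 2-fold apart between E17.5 and P1, where the largest differences were those of Tnfrsf19 (0.50) and Apcdd1 (0.48), the latter a feedback inhibitor enriched in barrier endothelium. Between P1 and the P5-labelled array, 1 of the 12 was at least 2-fold higher, a share near the 8.96% of all genes. This was Ndp, the ligand norrin, which stood at 7.18, 7.17, 8.46 and 7.56 and was above the filter on the P5-labelled array alone. Tspan12, the tetraspanin that helps norrin signal, differed by 0.73 and Nkd1 by 0.66. Axin2, a general Wnt target, differed by −0.52. In this comparison 8 of the 12 were above P1 and 4 below, with a median of 0.14, beside 0.05 over all genes past the filter. Adgra2, the receptor GPR124 that relays Wnt7 signals in brain endothelium, stood at 8.10, 8.15, 8.63 and 8.45. The Wnt7 ligands stood at 8.81, 8.57, 8.31 and 8.53 (Wnt7a) and at 8.11, 8.36, 8.26 and 8.37 (Wnt7b, under the filter on every array). Neither Adgra2 nor the Wnt7 ligands had a 2-fold difference. Ctnnb1, beta-catenin itself, stayed between 11.93 and 12.04. None of the 12 was 2-fold apart between P1 and the P14-labelled array.

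Markers of other cell types also differed between the arrays. The log2 of the summed signal of the 31 members was 14.62, 14.72, 15.2 and 14.99 in order of labelled age. For 12 pericyte and smooth muscle markers the same sum was 12.32, 12.35, 13.24 and 12.95, and 11 of the 12 were above P1 on the P5-labelled array. Vtn (1.68) and Mcam (1.5) reached 2-fold in that comparison. They made up 2 of the 9 markers that passed the filter, beside a background share of 8.96%. For 9 fibroblast markers of the meninges and perivascular space the sum was 11.72, 11.93, 12.74 and 13.12. All 9 were higher on both later arrays, and Dcn, the proteoglycan decorin, was 2.66 above P1 on the P14-labelled array. Between E17.5 and P1, 6 of these 9 were lower and 3 higher, with a median difference of −0.05, and Pdgfra differed most, by 0.94. For 9 astrocyte markers the sum was 13.20, 14.03, 15.07 and 14.70, and for 8 microglial markers 10.76, 11.34, 12.16 and 11.81. For 7 oligodendrocyte markers it was 10.67, 11.16, 15.58 and 12.29. For 7 markers of young neurons it was 15.23, 14.94, 12.41 and 14.07, and for 6 neuron markers 15.10, 15.06, 15.55 and 15.34. Higher on both later arrays than on both earlier arrays were 7 of 12 pericyte and smooth muscle markers and 8 of 9 astrocyte markers. The same held for 7 of 8 microglial, 7 of 7 oligodendrocyte and 4 of 6 neuron markers. Of the 7 young neuron markers, 0 were higher and 6 were lower on both. The share of each cell type in the pools was not measured, and the part of these markers in the members' differences was not tested. Red blood cells could be read on Alas2 (8.89, 8.41, 8.66 and 8.62) and Slc4a1 (7.69 to 7.84) alone. None of 6 choroid plexus markers passed the filter, and the highest of their levels on any array was 7.78, for Folr1.

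The summed signal gives most weight to members with strong probes, such as Slc7a5, Bsg, Mfsd2a and Slc2a1. By role, the median difference between P1 and the P5-labelled array was 0.64 for the 9 transporters, 0.38 for the 7 receptors and partners, 0.42 for the 6 junction genes, 0.70 for the 4 secreted and surface proteins and 0.34 for the 5 transcription factors, each beside −0.03 over all genes. For the P14-labelled array against P1 the same medians were 0.26, 0.34, 0.26, 0.48 and 0.22, beside 0.02. On both later arrays every role therefore had a median above that of all genes. Over the 8 transporters past the filter, which leaves out Slco1a4, the median for the P5-labelled array against P1 was 0.50, and differences between the roles were not tested.

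**Figure D4:**
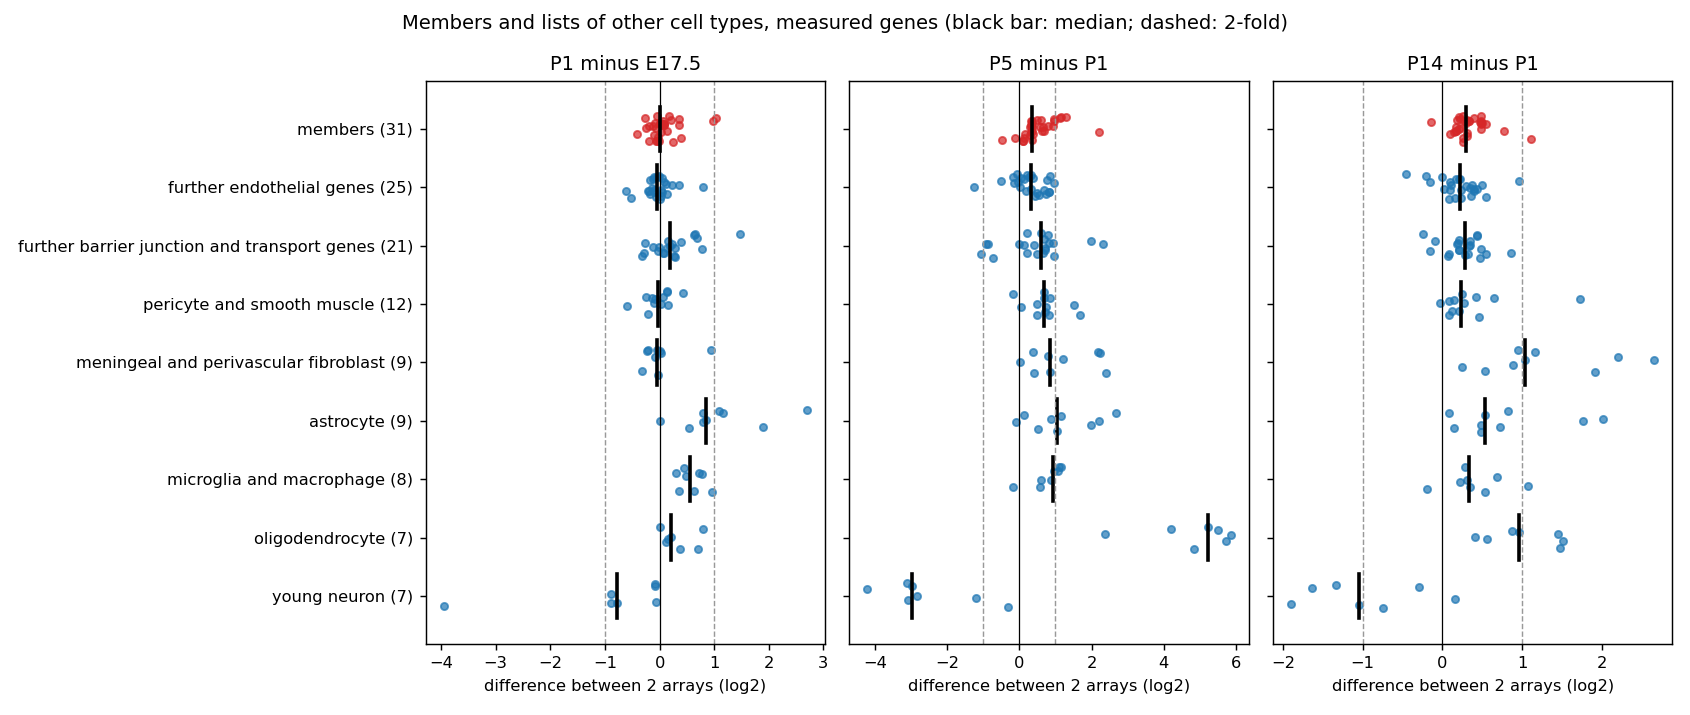
Difference between 2 arrays on the log2 scale (horizontal axes, with a scale of their own in each panel) for the measured genes of the member list (red) and 8 lists of related genes and other cell types (blue); each point is 1 gene and the black bar is the median. The members' medians stand at 0.01, 0.36 and 0.30 from left to right, beside 5.23 for oligodendrocyte and −2.98 for young neuron markers in the middle panel.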

How the data were processed

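Pontine nucleus RNA from 4 pools of ICR mice (68 mice) was measured on 4 arrays. The authors deposited normalised log2 signals per probe set, made with Affymetrix Expression Console per the submitters' processing notes; no version, summary method or normalisation is named in the labels. That the scale is log2 follows from the range of the values (1.84 to 14.72). Per the labels, RNA was isolated with Trizol and a column, and sense-strand cDNA was labelled with biotin.

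The platform table named 23410 of 35556 probe sets, 21789 with 1 symbol and 1621 with several, and only the former were used; the other 12146 are unnamed here. For each of 19938 genes the probe set whose 4-array mean was highest was taken, and 10901 genes had a highest array of at least 8.41. Array medians were 7.91, 7.94, 7.89 and 7.92. Differences of log2 values were counted at 1 (2-fold). With 1 array per age there is no test or p-value. Counting and spread estimates were tested on simulated data. All members are named; of the other lists, genes with the largest differences, and some ligands and receptors of the members chosen after their values were seen. The members and lists were chosen with earlier results of these data known. Motifs were searched in RefSeq promoter windows (GRCm38.p6). Alternatives changed the level filter, probe set choice, scaling and size of difference. Python 3.11.15, numpy 2.4.6 and pandas 2.3.3 were used.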

Additional observations from a re-analysis of the deposited data

How the results depend on the processing

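Of 56 recomputed counts and medians over the members, 52 stayed near the reported value and 4 did not. Near means within 1.5 times the reported count or within the probe set spread of the reported median. Some of the 52 could not move. Each measured member had 1 probe set, so averaging the probe sets of a gene left all members as they were. Median centring could not move P14 against P1, since both arrays had a median of 9.7 over genes past the filter. Without the level filter, 1 member was at least 2-fold lower on the P14-labelled array than on the P5-labelled array, in place of 0; that member is Slco1a4, which the filter had left out. At a size of 1.5-fold in place of 2-fold, 4 members were lower in that comparison, and 11 in place of 3 were higher on the P5-labelled array than at P1. With the filter raised to the 75th percentile (9.91), the median difference of the 11 members left was 0.63 for the P5-labelled array against P1, in place of 0.37 over the 28 members past the filter. Over all these alternatives that median ran from 0.26 to 0.63, the median for P14 against P1 from 0.30 to 0.32, that for P1 against E17.5 from 0.00 to 0.08 and that for P14 against P5 from −0.17 to −0.03. The number of members higher on both later arrays was 27 of 31 after quantile normalization. It was 25 after centring each array on its median over the genes past the filter. Both of these checks were chosen after seeing the data. With the filter and probe sets chosen without the P5-labelled array, 25 members passed and the 4 counts of 2-fold differences were the same. No member difference of at least 2-fold changed direction. The filter and probe set alternatives could not change a member's own differences, so this says little about how stable they are. Small differences could change sign: for the P5-labelled array against P1, Ocln differed by 0.10 as reported and by −0.01 after median centring. No paired analysis was possible because each age has 1 array. Leaving out a replicate was not possible for the same reason. Members with levels near 8.41 have inexact sizes, since background was not measured.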

Other observations

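Other genes of endothelium and barrier, on lists that share no gene with the members, went both ways. Of 25 further endothelial genes measured, 15 were higher and 2 lower on both later arrays than on both earlier arrays, where 23.6% and 24.4% of all genes were. Adgrl4 and Adgrf5, adhesion receptors of endothelium, differed by 0.83 and 0.76 between P1 and the P5-labelled array, and Cav1, caveolin of endothelial vesicles, by 0.82. Podxl, a surface sialomucin, stood at 10.09, 9.47, 9.30 and 9.27 in order of labelled age, lowest on the later arrays, and Palmd at 10.42, 10.24, 9.73 and 9.79. Rasip1, a regulator of vessel lumen formation, differed by −1.25 between P1 and the P5-labelled array and stood at 9.55, 9.78, 8.53 and 9.63. Past the filter, 1 of 14 genes of this list, Rasip1, was at least 2-fold lower in that comparison and 0 were higher. Of all genes past the filter, 3.94% were lower and 8.96% higher. Plvap, which marks fenestrated or immature brain endothelium, stood at 8.50, 8.85, 8.78 and 8.85.

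Of 21 further barrier junction and transport genes measured, 14 were higher and 2 lower on both later arrays, beside the same shares of all genes. Past the filter, 2 of 19 were at least 2-fold higher on the P5-labelled array than at P1, where 8.96% of genes were: Cd59a, a complement inhibitor, at 2.31 and Car4, a carbonic anhydrase of capillaries, at 1.98. Slc22a8, an organic anion transporter, followed at 0.97. At least 2-fold lower was 1 of the 19, where 3.94% of genes were: Lrp8, a receptor for reelin that is also made by neurons (−1.07). Both counts were thus near the background. Slc7a3, a cationic amino acid transporter, was 1.47 higher at P1 than at E17.5, the largest difference of the list around birth. In that comparison 1 of the 19 was at least 2-fold higher, where 0.826% of genes were. At E17.5 Slc7a3 stood at 7.71, under the filter, so the size of its difference is inexact. Slc3a2, the heavy chain that pairs with Slc7a5, stood at 12.33, 12.49, 12.69 and 12.56, highest on the P5-labelled array, where Slc7a5 was lowest.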
